A study of Mus musculus with 6 samples.

Results

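The genes described here are 10 markers of cortical interneurons: the peptide genes Sst, Npy, Vip, Cck, Cort, Crh and Tac2, the binding protein gene Crhbp, and Chodl and Nos1, which mark long-range Sst cells. They were chosen by gene name. All 10 were found once each among 54532 gene identifiers in the count table, and all 10 passed the filter on low counts that left 17042 genes for testing. Levels were measured by RNA sequencing of mouse cortex in 3 cell-treated and 3 control libraries. Cell-treated mice were 5XFAD animals given a cell therapy, which the series title describes as human interneurons of the GABA-releasing kind made from induced pluripotent stem cells. Control mice were 5XFAD animals without that therapy, labelled NC. Both groups thus carried the 5XFAD transgenes, human amyloid precursor protein and presenilin genes with familial Alzheimer mutations driven by Thy1 promoter elements. Age, sex, the time after grafting and any sham injection are not given in the sources used here. The column names call one group treated and the other AD, and the AD columns were taken as controls by elimination, so every direction below rests on that reading.

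Cortical interneurons are inhibitory neurons, and their major classes are told apart by the peptides they make. Somatostatin cells target the dendrites of pyramidal cells, vasoactive intestinal peptide cells mostly inhibit other interneurons, and a rare somatostatin class with neuropeptide Y, nitric oxide synthase and Chodl sends long axons across the cortex. Peptides are stored in dense-core vesicles and act on G-protein-coupled receptors, and the transcription of several peptide genes follows neuronal activity through cyclic AMP and CREB. In Alzheimer's disease, cortical somatostatin is known to be reduced.

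Total counts ran from 14880969 to 16696463 in the cell-treated libraries and from 14221519 to 15607280 in the control libraries. Cell-treated library 3 stood apart, with a mean Pearson correlation of 0.936 with the other libraries across genes, which are not independent replicates, where the other 5 had 0.963 to 0.969. Control library 3 stood apart in the share of counts from mitochondrial genes, 1.95%, where the cell-treated libraries had 4.49 to 6.80% and the other control libraries 7.28 and 8.78%. The 3 libraries of a group are biological replicates per the design text, so p-values measure the spread among these samples. The tissue label was checked on pyramidal cell genes. Slc17a7, the vesicular glutamate transporter of cortical excitatory neurons, ran from 844 to 1409 CPM in cell-treated and from 861 to 1312 CPM in control libraries. CPM is the count of a gene scaled to a fixed library size with TMM factors. Markers of neighbouring tissue were not evenly spread. The summed level of 12 striatal projection neuron genes was 470, 482 and 968 CPM in cell-treated and 795.5, 957 and 2216 CPM in control libraries. Control library 3 held the highest value of all 12. All 12 had negative log2 fold changes, at a median of -1.65. Of these, 8 had no overlap between the groups, where 8.60% of all genes tested had none. In edgeR 10 had an unadjusted p under 0.05, where 1.995% of all genes tested did, and none passed the adjusted test. The summed level of 9 olfactory bulb genes was 340, 7.50 and 45.6 CPM in cell-treated and 9.67, 26.1 and 34.0 CPM in control libraries. Cell-treated library 1 was highest for 7 of the 9, and 3 of the 9 had no read in at least 1 library. In bulk tissue, fewer cells of a type and less RNA per cell cannot be told apart.

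The sequences below show which of these genes hold a cyclic AMP site near their RefSeq start. Cyclic AMP acts on some peptide genes through the CREB site TGACGTCA and its core CGTCA. Both were searched on both strands in the 250 bases before the RefSeq start of each gene (RefSeq, GRCm38.p6), and every full site contains the core. An entry was matched for 9 of the 10 genes, all but Crh. The full site is in 1.55% and the core in 17.8% of all 32851 promoter windows of that length. Among the 9 genes the full site was found in Sst alone and the core in Sst, Vip, Cck, Cort, Crhbp and Nos1. Npy, Chodl and Tac2 had neither in this window. The sites are printed 5′ to 3′ on the strand of the gene, with the match in capitals. They begin 48 bases before the RefSeq start in Sst, 79 in Vip, 47 in Cck, 18 in Cort, 64 in Crhbp and 130 in Nos1. For Sst, Crhbp and Nos1 the site lies inside the gene as counted, since the annotation of the counts places the start elsewhere. That start is 23890958 for Sst, 95444924 for Crhbp and 117781032 for Nos1.
Sst chr16:23890875-23890904, minus strand: cgcctccttggcTGACGTCAgagagagagt
Vip chr10:5639127-5639156, plus strand: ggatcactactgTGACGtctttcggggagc
Cck chr9:121495724-121495753, minus strand: cctgctggactgCGTCAgcactgggtaaac
Cort chr4:149126764-149126793, minus strand: ctccggcttgtgCGTCAccgcgtgagtgtg
Crhbp chr13:95444878-95444907, minus strand: gagctggaccctCGTCAttgccacgcattt
Nos1 chr5:117866697-117866726, plus strand: aaaccagccatgCGTCAggcttggcttcag

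The window of Npy is shown whole because Npy had the widest range of levels of the 10 genes. Its capitals mark ATAAAA, a word like the TATA box that begins 20 bases before the start. Searched on both strands, this word is in 17.0% of all promoter windows of 250 bases. A match of letters is a description and not a measured binding site.
Npy chr6:49822460-49822709, plus strand: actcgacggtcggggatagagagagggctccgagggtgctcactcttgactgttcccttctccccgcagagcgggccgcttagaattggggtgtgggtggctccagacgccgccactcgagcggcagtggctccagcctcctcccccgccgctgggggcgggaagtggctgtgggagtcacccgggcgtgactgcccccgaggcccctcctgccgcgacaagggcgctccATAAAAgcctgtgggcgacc

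Sst and Cort are shown side by side because cortistatin is a close relative of somatostatin and binds its receptors. The lines give the last 14 codons before the stop codon in the GENCODE M21 transcripts (GRCm38), where the mature peptides are encoded. With Cort shifted by 1 codon, 31 of 39 aligned bases are identical, and these are in capitals. Over the whole transcripts, of 721 bases in Sst and 677 in Cort, the longest shared stretch is 21 bases.
Sst chr16:23889732-23889773, minus strand: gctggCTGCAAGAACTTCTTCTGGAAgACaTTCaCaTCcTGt
Cort chr4:149125267-149125308, minus strand: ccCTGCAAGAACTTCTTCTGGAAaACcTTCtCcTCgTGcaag

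Levels of different genes were compared per length, as the authors' FPKM. By the median of the 6 libraries the order was Cck at 159 FPKM, Sst at 139, Npy at 77.9, Vip at 10.7, Crhbp at 9.02, Nos1 at 3.90, Crh at 3.74, Cort at 3.39, Tac2 at 2.94 and Chodl at 0.149. Cck and Sst overlapped, from 99.7 to 212 FPKM for Cck and from 104 to 298.5 FPKM for Sst, and so did Sst and Npy, which ran from 50.3 to 902 FPKM. The lowest value of Npy lay above the highest of Crhbp, 41.1 FPKM. Neighbours from Vip to Tac2 overlapped in their ranges. Chodl stood below the rest, at no more than 0.221 FPKM, where the lowest value of any other of these genes was 0.928 FPKM.

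None of the 10 genes differed between the groups at an adjusted p of 0.05. Of all 17042 genes tested, edgeR's quasi-likelihood test with Benjamini-Hochberg adjustment called 0, which is 0% of them, and 1.995% had an unadjusted p under 0.05. DESeq2, which gave an adjusted p for 32739 genes, called 9 of those (0.0275%), none of the 10 genes among them, and limma voom called 0. Npy had no p-value in DESeq2 and so could not be called by it. None of the 10 had an unadjusted p under 0.05 in edgeR. In none did the groups separate without overlap, where 8.60% of all genes tested did. There were 5 with a positive and 5 with a negative log2 fold change, at a median of -0.03, where all genes tested had a median of 0.0013. Missing the threshold is no evidence of equal levels, since single libraries moved these values widely.

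**Figure D1:**
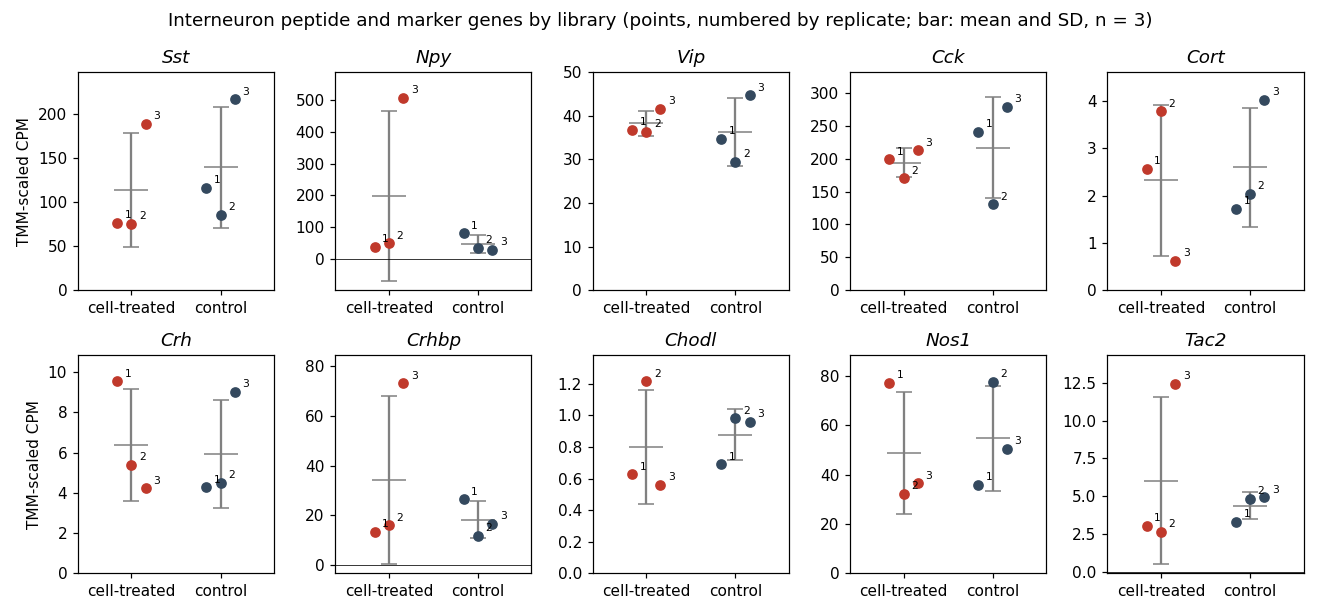
TMM-scaled CPM (vertical axis, linear) of each gene in the 3 cell-treated (red, left) and 3 control libraries (dark, right), numbered by replicate, with the mean and SD of each group. Npy, Crhbp and Tac2 are each highest in cell-treated library 3, at 505, 73.1 and 12.4 CPM, and no gene separates the groups.

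Sst encodes somatostatin, the peptide that gives its interneuron class its name (ENSMUSG00000004366, chromosome 16, 23889573 to 23890958). It was at 76.7, 75.2 and 189 CPM in cell-treated libraries 1, 2 and 3, and at 117, 85.3 and 217 CPM in control libraries 1, 2 and 3. The third library of each group was high and the others were low, so the groups overlapped. The means were 113.5 ± 65.0 CPM in cell-treated and 139.5 ± 68.7 CPM in control libraries (SD, n = 3 each). The log2 fold change was -0.30 ± 0.454 (SE). Without cell-treated library 3 it was -0.88, at an unadjusted p of 0.0461 and an adjusted p of 0.914 in edgeR; in that fit 4.54% of genes had an unadjusted p under 0.05. Without control library 3 it was 0.17. Control library 3, the highest for Sst, was also the highest for striatal projection neuron genes and the lowest in mitochondrial share, and the striatum has Sst interneurons of its own. The part of tissue composition in these values was not tested.

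Cort encodes cortistatin (ENSMUSG00000028971, chromosome 4, 149125034 to 149126763). Its counts were 41, 56 and 10 in cell-treated libraries and 25, 29 and 63 in control libraries, or 2.57, 3.78 and 0.622 CPM against 1.73, 2.03 and 4.03 CPM. Cell-treated library 3 was lowest for Cort, whereas it was second highest for Sst. The 10 reads in that library have an exact 95% Poisson interval of 4.80 to 18.4, and the 25 reads of control library 1, the next lowest count, have one of 16.2 to 36.9. Such intervals cover counting error only. The log2 fold change of Cort was -0.16 ± 0.639 (SE). Leaving out cell-treated library 3 gave 0.28, and leaving out control library 3 gave 0.30.

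Npy encodes neuropeptide Y, made by Sst cells, by neurogliaform cells and by the long-range class (ENSMUSG00000029819, chromosome 6, 49822710 to 49829507). It was at 38.5, 49.9 and 505 CPM in cell-treated libraries and at 80.6, 35.4 and 28.7 CPM in control libraries. The counts behind these levels were 614, 738 and 8124 in cell-treated and 1168, 505 and 449 in control libraries. Cell-treated library 3 was 6.27-fold above the next library, and cell-treated libraries 1 and 2 lay inside the control range. The means were 198 ± 266 CPM in cell-treated and 48.3 ± 28.3 CPM in control libraries (SD, n = 3 each). The log2 fold change was 2.04 ± 0.965 (SE), at an unadjusted p of 0.0683 and an adjusted p of 0.999 in edgeR. Without cell-treated library 3 it was -0.13. DESeq2 set the gene aside with no p-value.

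Chodl encodes chondrolectin and is the most selective marker of the long-range class (ENSMUSG00000022860, chromosome 16, 78930948 to 78951733). Only 10, 18 and 9 reads were counted in cell-treated libraries and 10, 14 and 15 in control libraries. The highest count has an exact 95% Poisson interval of 10.7 to 28.4 and the lowest one of 4.12 to 17.1. These intervals overlap, so the observed difference between the highest and lowest count was not resolved at this depth. Chodl had a log2 fold change of -0.14 ± 0.485 (SE).

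Nos1 encodes the neuronal nitric oxide synthase (ENSMUSG00000029361, chromosome 5, 117781032 to 117958840). It was at 77.0, 32.3 and 36.5 CPM in cell-treated libraries and at 35.8, 77.6 and 50.4 CPM in control libraries. Each group had 1 library well above its other 2, and the means were 48.6 ± 24.7 CPM in cell-treated and 54.6 ± 21.2 CPM in control libraries (SD, n = 3 each). The log2 fold change was -0.17 ± 0.394 (SE), and it ran from -0.67 without cell-treated library 1 to 0.17 without control library 2. The annotated antisense gene Gm26995 lies inside Nos1 and had between 0 and 2 reads per library. Nos1 was about equally high in control library 2 and cell-treated library 1, whereas Sst was highest in control library 3 and Npy in cell-treated library 3.

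Crh encodes corticotropin-releasing hormone and Crhbp the secreted protein that binds it, which is found in a part of the Sst cells. Crh (ENSMUSG00000049796, chromosome 3, 19693401 to 19695396) was at 9.53, 5.40 and 4.23 CPM in cell-treated libraries and at 4.28, 4.49 and 9.01 CPM in control libraries. Cell-treated library 1 and control library 3 were about alike and the other 4 lay near each other. Its log2 fold change was 0.11 ± 0.431 (SE), from -0.30 without cell-treated library 1 to 0.54 without control library 3. Crhbp (ENSMUSG00000021680, chromosome 13, 95431371 to 95444924) was at 13.3, 15.9 and 73.1 CPM in cell-treated libraries and at 26.4, 11.8 and 16.7 CPM in control libraries. Cell-treated library 3 was 2.77-fold above the next library and the remaining 5 overlapped. The log2 fold change of Crhbp was 0.90 ± 0.649 (SE), at an unadjusted p of 0.204 and an adjusted p of 0.999 in edgeR, and it was -0.33 without that library. The hormone and its binding protein did not share their pattern: in cell-treated library 3 Crh had its lowest value and Crhbp its highest.

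Vip encodes vasoactive intestinal peptide (ENSMUSG00000019772, chromosome 10, 5639218 to 5647617). It was at 36.8, 36.3 and 41.6 CPM in cell-treated libraries and at 34.7, 29.5 and 44.7 CPM in control libraries. This was the narrowest range of the 10 genes, with the highest library 1.52-fold above the lowest. Vip had a log2 fold change of 0.08 ± 0.198 (SE). Tac2 encodes neurokinin B, which marks a part of the Vip cells in mouse cortex (ENSMUSG00000025400, chromosome 10, 127724478 to 127731768). It was at 3.01, 2.63 and 12.4 CPM in cell-treated libraries and at 3.31, 4.84 and 4.92 CPM in control libraries. Cell-treated library 3 was 2.53-fold above the next library, and cell-treated libraries 1 and 2 were the lowest of all. The log2 fold change of Tac2 was 0.47 ± 0.602 (SE), and it was -0.63 without cell-treated library 3.

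Cck encodes cholecystokinin, which is found in a class of basket cells and also in many pyramidal cells, so its cortical level is not a measure of interneurons alone (ENSMUSG00000032532, chromosome 9, 121489824 to 121495694). It was at 199, 170 and 213 CPM in cell-treated libraries and at 241, 131 and 279 CPM in control libraries. All cell-treated values lay inside the control range. The means were 194 ± 21.7 CPM in cell-treated and 217 ± 77.0 CPM in control libraries (SD, n = 3 each), and the log2 fold change was -0.16 ± 0.282 (SE).

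**Figure D2:**
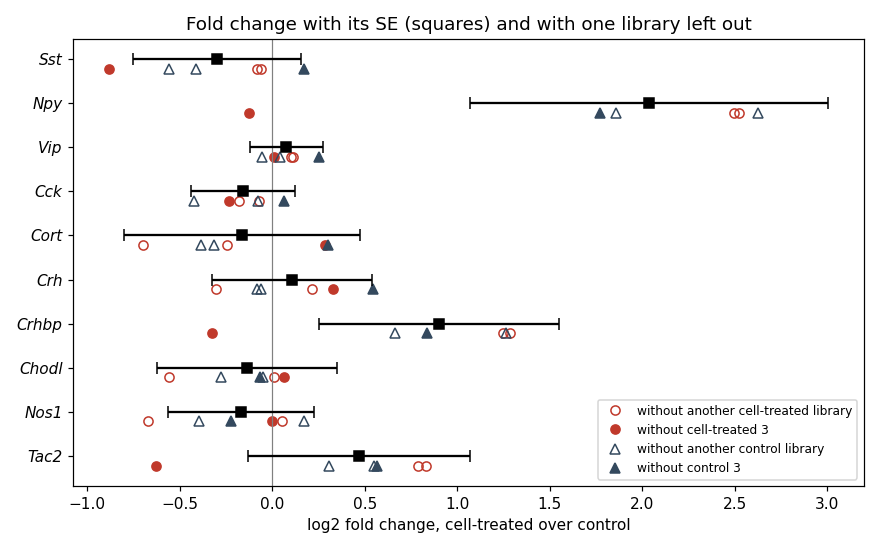
Log2 fold change of each gene, cell-treated over control (horizontal axis), from edgeR with its SE (black squares and bars, n = 3 each), and the same with 1 library left out (red circles, a cell-treated library; dark triangles, a control library). Filled red circles, without cell-treated library 3, lie below 0 for Npy, Crhbp and Tac2, at -0.13, -0.33 and -0.63.

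**Figure D3:**
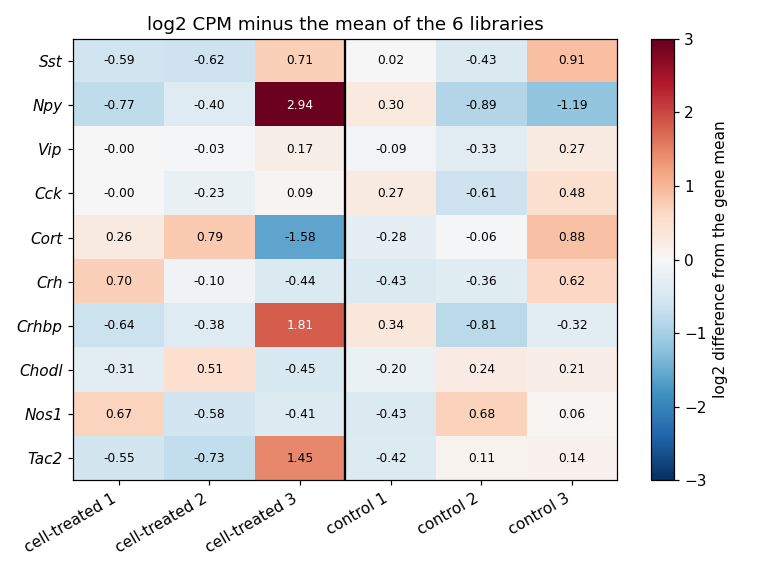
Log2 CPM of each gene minus its mean over the 6 libraries (colour and printed number), with cell-treated libraries left of the line and control libraries right of it. Cell-treated library 3 has 2.94 for Npy, 1.81 for Crhbp, 1.45 for Tac2 and -1.59 for Cort.

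The libraries differed more by gene than by group. Of the 10 genes, 3 were highest in cell-treated library 3 and 3 were lowest there. Control library 3 was highest for 4, namely Sst, Vip, Cck and Cort, and lowest for Npy. Control library 2 was lowest for Vip, Cck and Crhbp and highest for Nos1. Cell-treated library 2 was lowest for Sst, Nos1 and Tac2 and highest for Chodl. The plot of centred profiles shows these opposite signs within single libraries.

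The peptides were next set against the genes that all GABA neurons share. Gad1 and Gad2 make GABA and Slc32a1 loads it into vesicles. Gad1 was at 954, 284 and 560 CPM in cell-treated libraries and at 320.5, 199 and 545 CPM in control libraries. Cell-treated library 1 thus had the highest Gad1 level, together with the highest olfactory bulb genes, whose interneurons also make GABA. The log2 level of Sst minus the mean log2 level of these 3 genes was -1.95, -0.76 and -0.52 in cell-treated libraries and -0.49, -0.48 and -0.33 in control libraries. The control values lay close together, with an SD of 0.0931, and all above the cell-treated ones, whose SD was 0.763. The difference was -0.64, with p = 0.1 in the exact permutation test (two-sided), the lowest value possible with 3 libraries per group. Without cell-treated library 1 it was -0.21. Sst was the 1 of the 10 genes whose groups did not overlap on this scale, with nearest values of -0.52 and -0.49. Of all genes tested 0.927% did not overlap on it, where 8.60% did not overlap in CPM. The same 3-gene mean was subtracted from every gene and this share depends on it, so it does not measure how rare the Sst result is. Against Gad2 and Slc32a1 alone, chosen after seeing the data, the Sst values were -1.10, -0.19 and 0.0018 in cell-treated and -0.011, -0.11 and 0.17 in control libraries. These overlapped, at a difference of -0.45 and an exact permutation p of 0.3. Against Gad1 alone, also chosen after seeing the data, the difference was -1.04 at an exact permutation p of 0.1. The part of olfactory bulb RNA in these differences was not tested.

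Relative to the same 3 genes, Npy was at -2.94, -1.36 and 0.90 on the log2 scale in cell-treated libraries and at -1.02, -1.75 and -3.24 in control libraries. The difference of the means was 0.87 at an exact permutation p of 0.6, and -0.14 without cell-treated library 3. For the other 8 genes the exact permutation p was between 0.3 and 1, with differences from -0.67 for Cort to 0.21 for Crhbp.

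**Figure D4:**
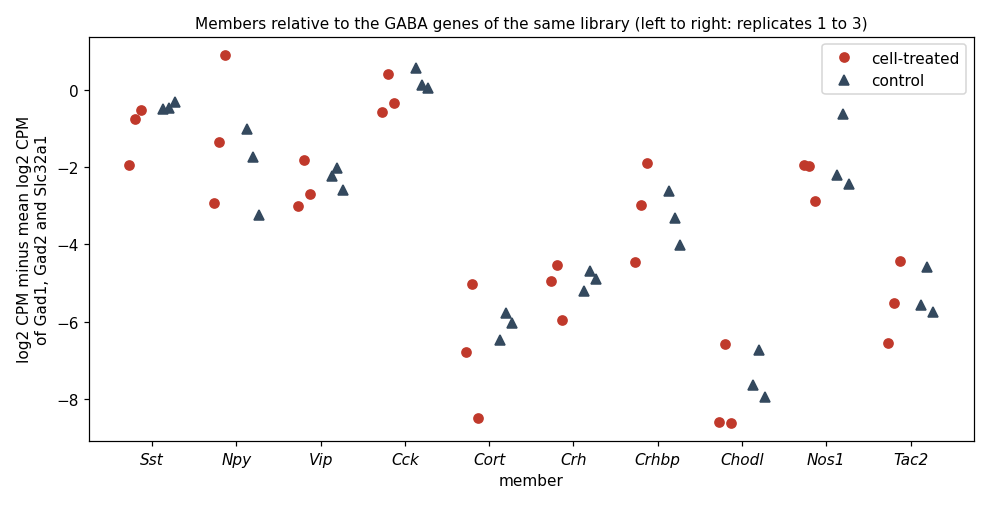
Log2 CPM of each gene minus the mean log2 CPM of Gad1, Gad2 and Slc32a1 in the same library (vertical axis), for cell-treated (red circles) and control libraries (dark triangles), replicates 1 to 3 from left to right. For Sst the 3 control values lie between -0.49 and -0.33 and the cell-treated values at -0.52 and below.

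Genes with the most similar profile were sought for Sst, Npy and Crh, by the root mean square difference between log2 CPM profiles centred on the mean of the 6 libraries, among 13038 protein-coding genes. For Npy, whose own centred profile had a root mean square of 1.40, they were Lilr4b, Cd44, Mt2, Hspb1 and Tnfrsf12a, at 0.253 to 0.290. Lilr4b is a leukocyte receptor, Cd44 a hyaluronan receptor, Mt2 a metallothionein, Hspb1 a small heat shock protein and Tnfrsf12a the receptor of the cytokine TWEAK. Cd44 was at 6.46, 8.58 and 72.3 CPM in cell-treated libraries and at 11.4, 8.55 and 4.67 CPM in control libraries. Hspb1 was at 7.21, 6.76 and 93.8 CPM in cell-treated libraries and at 15.7, 8.83 and 6.01 CPM in control libraries. In all 5 genes, as in Npy, cell-treated library 3 was highest and control library 1 the next. The genes were chosen by likeness to Npy, so this shared order is no separate result.

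**Figure D5:**
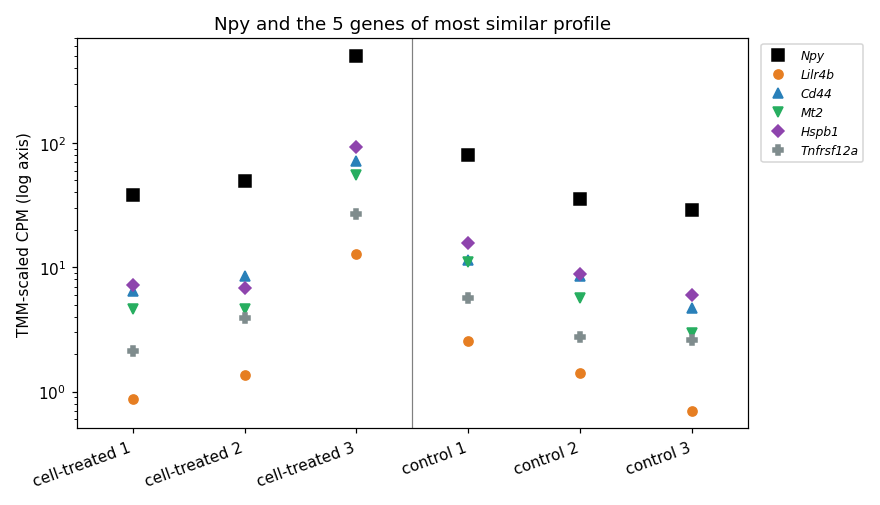
TMM-scaled CPM (log axis) of Npy and the 5 protein-coding genes with the most similar profile in each of the 6 libraries, cell-treated left of the line and control right of it. All 6 genes are highest in cell-treated library 3, where Npy is at 505 and Hspb1 at 93.8 CPM.

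For Sst the nearest profiles were those of Mrps34, Gpank1, Amn, Nmnat3 and Znhit2, at 0.154 to 0.186, where the profile of Sst had a root mean square of 0.612. Mrps34, a mitochondrial ribosomal protein, was at 11.5, 10.9 and 32.5 CPM in cell-treated and at 16.7, 12.1 and 25.9 CPM in control libraries. For Crh they were Eepd1, Rab3b, Gucy1b1, Robo2 and Sertad4, at 0.0887 to 0.156, where the profile of Crh had 0.484. Rab3b, a small GTPase of secretory vesicles, was at 57.0, 32.2 and 32.6 CPM in cell-treated and at 28.3, 31.1 and 63.9 CPM in control libraries. These likenesses rest on 6 libraries, and no shared function is read from them.

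The receptors for these peptides were followed as a list of 17 genes. Of the 15 that passed the filter, 8 had positive and 7 negative log2 fold changes at a median of 0.039, and none passed the test. Vipr2, a receptor of vasoactive intestinal peptide, was at 28.5, 0.676 and 0.373 CPM in cell-treated libraries and at 0.690, 0.561 and 2.05 CPM in control libraries. The high value was that of cell-treated library 1, the library with the highest olfactory bulb genes. Log2 fold changes of somatostatin receptors were -0.49 ± 0.282 for Sstr1, 0.52 ± 0.377 for Sstr2, 0.039 ± 0.2497 for Sstr3, 0.28 ± 0.310 for Sstr4 and -0.98 ± 0.594 for Sstr5 (SE). Sstr5 was the 1 receptor of the 15 without overlap between the groups, where 8.60% of all genes tested did not overlap. It had 2, 7 and 10 reads in cell-treated libraries and 12, 11 and 13 in control libraries. The nearest 2 counts, 10 and 11, have exact 95% Poisson intervals of 4.80 to 18.4 and of 5.49 to 19.7. Cckbr, the main cholecystokinin receptor of the cortex, was at 56.3, 60.6 and 8.77 CPM in cell-treated libraries and at 42.5, 51.1 and 41.9 CPM in control libraries, so that cell-treated library 3 was lowest for this receptor.

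Of 15 genes of peptide processing and dense-core vesicles, 10 had positive and 5 negative log2 fold changes at a median of 0.20, and none passed the test. Pcsk1n, which encodes an inhibitor of a prohormone convertase, had the smallest p, at a log2 fold change of -0.65 ± 0.321 (SE). Control library 3 was highest for it, at 1275 CPM, where the others ran from 451 to 689 CPM. Cadps, needed for the release of dense-core vesicles, was at 336, 284 and 280 CPM in cell-treated libraries and at 234, 215 and 261 CPM in control libraries. It was the 1 gene of the 15 without overlap, where 8.60% of all genes tested did not overlap. The log2 fold change of Cadps was 0.34 ± 0.176 (SE), at an unadjusted p of 0.0884 in edgeR. Scg2, a secretogranin, was at 291, 113 and 599.5 CPM in cell-treated and at 148, 109 and 279.5 CPM in control libraries. Pcsk1, the convertase itself, was at 48.6, 40.5 and 12.9 CPM in cell-treated libraries and at 15.6, 24.1 and 24.6 CPM in control libraries, the lowest being cell-treated library 3.

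Of 15 further genes linked to Sst cells, 8 had positive and 7 negative log2 fold changes at a median of 0.078, and none passed the test. Tac1, the gene of substance P, had a log2 fold change of -2.21 ± 0.682 (SE), at an unadjusted p of 0.0120 and an adjusted p of 0.999 in edgeR. It was at 13.0, 12.6 and 8.65 CPM in cell-treated libraries and at 17.7, 24.3 and 117 CPM in control libraries. Striatal projection neurons also make Tac1, and control library 3 was the highest for both. Pdyn, the prodynorphin gene, which striatal neurons share as well, was at 17.6, 20.1 and 44.0 CPM in cell-treated and at 28.4, 27.5 and 92.1 CPM in control libraries. The part of tissue composition in the Tac1 and Pdyn values was not tested. Hpse, a heparanase found in a subset of Sst cells, had a fold change of -0.53 ± 0.359 on the log2 scale (SE), and that of Etv1, a transcription factor, was 0.48 ± 0.288 (SE).

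Of 11 genes shared by GABA interneurons, 9 had positive and 2 negative log2 fold changes at a median of 0.34, and none passed the test. Cell-treated library 1 was highest for 7 of the 11, and without it the median was -0.26. Dlx1, a transcription factor of the interneuron lineage, was at 110, 29.9 and 17.1 CPM in cell-treated libraries and at 26.9, 27.9 and 32.0 CPM in control libraries. Log2 fold changes were 0.76 ± 0.491 for Gad1, 0.94 ± 0.723 for Dlx5 and 0.75 ± 0.607 for Dlx2 (SE).

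Of 15 activity-regulated early genes, 9 had positive and 6 negative log2 fold changes at a median of 0.052, and none passed the test. Their summed level was 1011, 921 and 452 CPM in cell-treated libraries and 645, 681 and 869 CPM in control libraries, so that cell-treated library 3, the highest for Npy, Crhbp and Tac2, was the lowest for this sum. Of the 15 genes, 2 were highest in that library all the same, Bdnf and Nptx2. Bdnf, a neurotrophin induced by activity, was at 17.4, 20.5 and 40.7 CPM in cell-treated and 31.2, 16.3 and 19.1 CPM in control libraries. Nptx2 was at 79.4 CPM in cell-treated library 3. Log2 fold changes were 0.54 ± 0.255 for Homer1, -0.39 ± 0.274 for Junb, 0.24 ± 0.378 for Bdnf and 0.19 ± 0.312 for Fosl2 (SE).

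Lists of other tissues were read for the library with the high Npy. In cell-treated library 3 the summed level of 7 olfactory ensheathing glia genes, a cell type that also makes Npy, was 80.2 CPM, where the other cell-treated libraries had 294 and 116 CPM and the control libraries 114 to 138 CPM. Of the 7, Matn4 and Mybpc1 were highest in cell-treated library 3, at 24.8 and 9.21 CPM, while Fabp7, Sox10 and Frzb, the genes of highest mean level, were lowest there, at 18.9, 22.6 and 3.73 CPM. The low sum thus followed the genes of highest level and does not speak for the whole list. Summed levels of 8 hypothalamic genes were 6.71, 3.65 and 50.6 CPM in cell-treated and 4.49, 10.2 and 6.46 CPM in control libraries. Nearly all of the high value came from the neuropeptide galanin: Gal was at 1.57, 0 and 45.3 CPM in cell-treated libraries and at 0.552, 0.140 and 0.384 CPM in control libraries. Gal did not pass the filter on low counts and has no test. Summed levels of 7 hippocampal genes were 110, 103 and 732 CPM in cell-treated and 185, 166 and 236 CPM in control libraries, most of it Wfs1, which reached 702 CPM in cell-treated library 3 and no more than 201.7 CPM in the others. Of the 7 hippocampal genes 4 were highest in that library, Wfs1, C1ql2, Dsp and Lct, though Dsp and Lct were low, at 2.12 and 2.49 CPM there. Fibcd1 was at 12.1, 6.76 and 7.09 CPM in cell-treated and at 2.55, 5.82 and 13.8 CPM in control libraries. C1ql2 and Prox1 are both among the markers of the dentate gyrus. In cell-treated library 3 C1ql2 was at its highest, 6.34 CPM, and Prox1 at its lowest, 10.95 CPM. Meningeal fibroblast genes summed to 82.9, 45.3 and 81.4 CPM in cell-treated and to 112, 113 and 34.1 CPM in control libraries. The part of these tissues and of the library itself in the Npy value was not tested.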

How the data were processed

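Cortex messenger RNA of 6 libraries was analysed, grouped by sample title and treatment label. The authors deposited whole-number counts of reads per gene and FPKM values; per the submitters' processing notes HISAT2 2.0.5, featureCounts and DESeq2 were used. The genome build: not given in the sources used here. Each of the 10 genes has the start and end of GENCODE M21 (GRCm38). The deposited FPKM were the counts over the length of the gene and over a library total of 0.953 to 1.03 times the count sum, so they carry a library scaling. Per the labels' protocols, RNA was selected by poly-T beads; no strand-marking kit is named. Whether human reads were separated is not given.

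The gene test was that of edgeR 4.0.16 (R 4.3.3): filterByExpr (minimum count 10, minimum total 15), TMM, robust quasi-likelihood F test, Benjamini-Hochberg over all genes, threshold 0.05. SEs were derived from the F statistic. Log2 CPM used a prior count of 2. Genes and lists were chosen with earlier results of these data known. Of each list, up to 4 genes of smallest p were named, of other-tissue lists those of highest mean CPM. The 5 nearest profiles of Npy, Sst and Crh were added. After their values were seen, Cckbr, Sstr3, Sstr4, C1ql2, Dsp, Lct, Matn4, Mybpc1 and Nptx2 were added too. Alternatives were DESeq2 1.42.0, limma 3.58.1 (voom, sample weights, log2(FPKM + 1), log2(FPKM + 0.1)), other scaling factors, no filter, the replicate number as a block, and libraries left out. The edgeR script was tested on simulated data. Figures used matplotlib 3.10.9.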

Additional observations from a re-analysis of the deposited data

How the results depend on the processing

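None of the 10 genes was called under any of the 16 alternatives, and the smallest adjusted p was 0.451 (Crh, limma voom with sample quality weights). With DESeq2 Npy could not be called, since it had no p-value there. Genes called in all were 9 with DESeq2, 1 with edgeR without a low-count filter and 0 under the others. The direction of the group difference turned for every one of the 10 genes under at least 1 alternative; the cause was not tested. With single libraries left out the log2 fold changes ran from -0.88 to 0.17 for Sst, -0.13 to 2.63 for Npy, -0.056 to 0.25 for Vip, -0.42 to 0.064 for Cck, -0.70 to 0.30 for Cort, -0.30 to 0.54 for Crh, -0.33 to 1.28 for Crhbp, -0.56 to 0.063 for Chodl, -0.67 to 0.17 for Nos1 and -0.63 to 0.83 for Tac2. Without control library 3 and cell-treated library 3 together they were -0.39 for Npy, 0.75 for Cort and -0.39 for Crhbp. In the same fit they were 0.13 for Chodl, 0.77 for Crh and -0.53 for Tac2, and Sst kept its sign at -0.41 (adjusted p 0.558, edgeR). With sample quality weights they were -0.25 for Npy, 0.47 for Cort, -0.36 for Crhbp, 0.22 for Nos1 and -0.33 for Tac2. Relative to the 3 GABA genes, single libraries left out gave -0.14 to 1.78 for Npy, -0.57 to 0.027 for Vip, -1.54 to 0.19 for Cort, -0.51 to 0.20 for Crh, -0.41 to 0.88 for Crhbp, -0.86 to 0.041 for Nos1, -0.74 to 0.32 for Tac2 and -0.92 to -0.21 for Sst. Without both of these libraries the values were -0.76 for Npy, 0.22 for Cort, 0.22 for Crh, -0.75 for Crhbp and -0.97 for Tac2, and against Gad1 alone, an alternative chosen after seeing the data, Crhbp was at -0.19.

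The replicate numbers share no stated litter or day, and the deviations of same-numbered libraries correlated at -0.277, 0.0815 and 0.0728 across genes, so they were not taken as pairs. With the replicate block edgeR called 0 genes, and the log2 fold changes were -0.33 for Sst and 1.02 for Npy. Depth limits Chodl, with 9 to 18 reads per library.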
